A study of Mus musculus with 8 samples.

Results

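Prostaglandins are lipid signals made and read by a short chain of genes, and 10 of these were followed in cultured embryonic mouse kidney. They were taken by gene name from the count table of 30890 genes: the enzymes of synthesis *Ptgs1*, *Ptgs2*, *Ptges*, *Ptgds* and *Ptgis*, the receptors *Ptger1*, *Ptger2*, *Ptger3* and *Ptger4*, and the breakdown enzyme *Hpgd*. All 10 were in the table, and 9 of them had enough counts to be tested, *Ptger1* being the exception. Kidneys of C57BL/6 embryos at E12.5 were grown on a floating filter for 72 h, 4 with 0.1% DMSO and 4 with 5 μM CHIR99021, an inhibitor of the kinase GSK-3 that raises β-catenin without a Wnt ligand. The labels name no transgene or mutation in either group, and both were whole organs in culture, cut off from blood flow. According to the methods of the study the left kidney of an embryo was the control and the right kidney was treated, and kidneys that lacked the usual shift of Wnt targets were left out, so a rise of those targets in these samples is no independent evidence.

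Prostaglandin synthesis starts when a phospholipase frees arachidonic acid from membranes. The cyclooxygenases encoded by *Ptgs1* and *Ptgs2* turn it into the unstable intermediate PGH2, and terminal synthases make from it PGE2, PGD2, PGF2α, prostacyclin (PGI2) or thromboxane. PGE2 acts through the receptors EP1 to EP4, of which EP2 and EP4 couple to Gs and raise cAMP, EP3 mainly couples to Gi and lowers it, and EP1 raises calcium. 15-hydroxyprostaglandin dehydrogenase, the product of *Hpgd*, inactivates PGE2. In the adult kidney PGE2 and prostacyclin set vessel tone, renin release and salt and water handling, and loss of *Ptgs2* in mice leaves kidneys underdeveloped after birth.

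Counts summed to between 14599082 and 17751992 per sample with DMSO and to between 14616300 and 16872129 with CHIR99021. Levels are given as CPM, which are counts scaled to a common library size with TMM factors, as mean ± SD over n = 4 samples, and levels of different genes are compared only as FPKM, which divides by gene length. Fold changes compare treated with control kidneys on the log2 scale, with a standard error (SE) taken from edgeR's quasi-likelihood test, and a gene is said to rise or fall at a Benjamini-Hochberg adjusted p under 0.05 over all 16723 tested genes. Of the Wnt targets used as a check on the labels, all 9 were higher with CHIR99021, among them *Axin2* (log2 fold change 3.24), *Lef1* (2.90) and *Notum* (7.53). Nephron progenitor markers marked the control cultures as kidney, at 585 to 712 summed CPM with DMSO, and stood at 41.1 to 50.0 with CHIR99021. DMSO replicates 2 and 4 held 1406 and 1000 summed CPM of liver markers, against 59.6 and 8.67 in DMSO replicates 1 and 3 and at most 8.05 with CHIR99021, and results that change without these 2 samples are given both ways. The mitochondrial share of all counts lay at 2.47% to 3.20% in the controls and at 3.48% to 4.14% in the treated kidneys.

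Of the 9 tested prostaglandin genes, 7 passed the test. *Ptges*, *Ptger2* and *Ptger3* rose, and *Ptgds*, *Ptgis*, *Ptger4* and *Hpgd* fell, while *Ptgs1* and *Ptgs2* did not pass. Over all tested genes 48.7% passed, 23.7% higher and 25.0% lower, so that a call alone was common in this comparison. Changes of over 2-fold were made by *Ptger2*, *Ptger4* and *Hpgd*, 3 of the 9, against 13.8% of all tested genes. *Ptger2* was the 1 that rose, against 4.65% of all tested genes, and *Ptger4* and *Hpgd* were the 2 that fell, against 9.16%. The DMSO and CHIR99021 samples did not overlap in 46.1% of all tested genes, and did not overlap in *Ptges*, *Ptgis*, *Ptger2*, *Ptger3*, *Ptger4* and *Hpgd*, 6 of the 9. The median log2 fold change of the 9 genes was -0.25, and that of all tested genes was -0.003. With the deposited FPKM values, which carry no TMM scaling, the median of all genes lay at -0.13 on the log2(FPKM + 0.1) scale and 29.2% of all calls were higher instead of 48.6%, while the members still split into 3 higher and 4 lower. Without DMSO replicates 2 and 4 the split was again 3 higher and 4 lower, with *Ptgs2* among the higher genes in place of *Ptger3*.

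**Figure D1:**
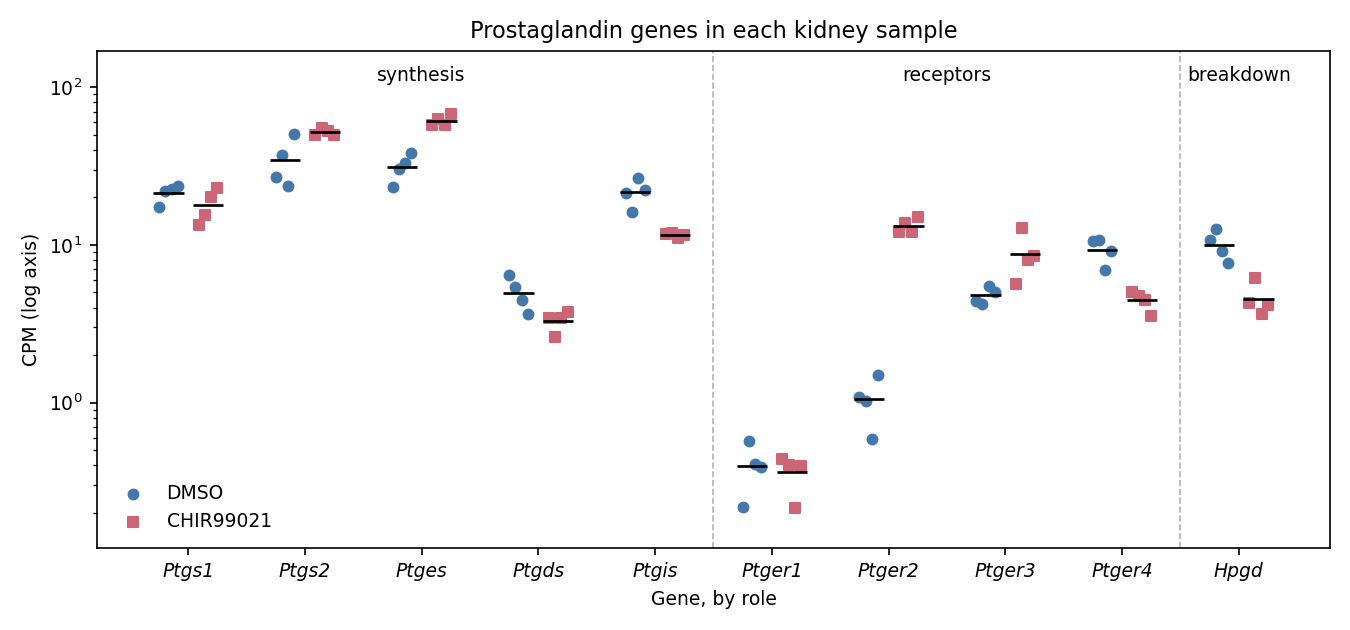
CPM of the 10 prostaglandin genes in each kidney sample on a log axis, ordered by role, with 4 DMSO samples (circles), 4 CHIR99021 samples (squares) and a black line at each group mean. *Ptger2* stands at 0.586 to 1.51 CPM with DMSO and at 12.0 to 15.1 with CHIR99021, the widest gap between groups among these genes.

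The sequences just upstream of 3 of these genes are shown for the way these genes moved. *Ptger2* and *Ptger4* encode the receptors that share the Gs and cAMP route and moved in opposite directions, and *Ptgs2* shares its upstream region with an antisense RNA that rose. Each is the 250 bases before the transcript start in RefSeq (GRCm38.p6), read 5′ to 3′ on the strand of the gene. In the first 2 the capitals mark CG dinucleotides, and in the *Ptgs2* sequence they mark the 67 bases that separate the annotated starts of *Ptgs2* and the antisense gene *Ptgs2os*.
Ptger2, chr14:44987861-44988110, plus strand: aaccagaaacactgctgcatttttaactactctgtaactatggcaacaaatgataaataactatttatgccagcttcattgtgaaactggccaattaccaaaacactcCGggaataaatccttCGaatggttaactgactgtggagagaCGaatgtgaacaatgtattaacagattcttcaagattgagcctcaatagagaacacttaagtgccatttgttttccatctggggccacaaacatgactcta
Ptger4, chr15:5244188-5244437, minus strand: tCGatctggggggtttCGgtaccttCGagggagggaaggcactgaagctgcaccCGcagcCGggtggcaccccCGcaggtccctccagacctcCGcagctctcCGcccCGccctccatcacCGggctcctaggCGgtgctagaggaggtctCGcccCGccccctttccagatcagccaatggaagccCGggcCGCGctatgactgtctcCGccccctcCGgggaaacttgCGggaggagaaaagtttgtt
Ptgs2, chr1:150099781-150100030, plus strand: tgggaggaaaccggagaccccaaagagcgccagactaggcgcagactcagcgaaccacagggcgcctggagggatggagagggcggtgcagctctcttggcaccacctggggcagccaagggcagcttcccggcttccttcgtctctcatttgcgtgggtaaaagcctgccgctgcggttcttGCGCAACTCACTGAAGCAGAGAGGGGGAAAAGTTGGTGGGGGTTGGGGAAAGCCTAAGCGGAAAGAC
The *Ptger2* stretch held 3 CG dinucleotides and that of *Ptger4* held 19, where the median over all promoters of the table was 6. The stretch of *Ptger3*, which rose, held 21, and that of *Ptgds*, which fell, held 2. Those of *Ptges*, *Hpgd*, *Ptgs1* and *Ptgs2* held 8, 9, 5 and 13. The *Ptges* stretch (30903298 to 30903547) belongs to a RefSeq start inside the counted span of the gene (30889471 to 30929863), not to its outer 5′ end. A link between CG number and direction of change was not tested.

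RefSeq promoters of 8 of the 10 genes were at hand, each from 250 bases before to 50 bases after the start. They were searched on both strands for 3 forms of the TCF/LEF core, of which CTTTGAT was held by 3.73% of all 32851 promoters of the table, the form ending in TT (CTTTGTT) by 5.85%, and the form ending in AA (CTTTGAA) by 5.14%. The cAMP response element TGACGTCA was held by 1.79% of all promoters, the NF-κB site GGGACTTTC by 0.353% and its variant GGGAATTTC by 0.259%. None of these 6 motifs was in any of the 8 windows, of which that of *Ptges* covers only the start inside its span. The TATA box TATAAA was in the window of *Hpgd* alone, and in 13.6% of all promoters. The absence of these letters from the windows says nothing of whether the factors bind elsewhere.

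The cyclooxygenases, which commit arachidonic acid to the pathway, did not pass the test in either case. *Ptgs1*, on chromosome 2 (36230426 to 36252272, plus strand), encodes the constitutive form. Its CPM was 17.3, 22.1, 22.6 and 23.6 in DMSO replicates 1 to 4 and 13.3, 15.5, 20.2 and 22.9 in CHIR99021 replicates 1 to 4. The groups overlapped, although the treated sample was lower in each of the 4 pairs of equal number. The log2 fold change was -0.25 (SE 0.17, adjusted p = 0.249, edgeR), with an approximate 95% interval of -0.58 to 0.08. With the replicate number as a block it was -0.27 with an adjusted p of 0.0340, whereas the same block in limma on log2(count + 1) gave -0.20 with an adjusted p of 0.154.

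*Ptgs2*, on chromosome 1 (150100031 to 150108227, plus strand), encodes the inducible form. Its CPM was 26.8, 37.2, 23.5 and 50.8 with DMSO and 49.5, 54.8, 52.7 and 49.9 with CHIR99021. The treated samples lay close together, the controls were spread widely below them, and only DMSO replicate 4 reached the treated level. The log2 fold change was 0.58 (SE 0.23, adjusted p = 0.0687, edgeR), with an approximate 95% interval of 0.14 to 1.03. The controls with the highest *Ptgs2* were replicates 2 and 4, the samples with the high liver markers. Without DMSO replicate 4 the log2 fold change was 0.82 (adjusted p = 0.000841, edgeR). Without DMSO replicate 2 alone, the sample with the most liver-marker RNA, it was 0.62 (adjusted p = 0.103, edgeR) and did not pass. Without DMSO replicates 2 and 4 it was 1.03 (adjusted p = 7.81e-06, edgeR). Leaving out the highest controls enlarges a rise in any case. In DESeq2 with all 8 samples *Ptgs2* passed at an adjusted p of 0.0485. The part of the liver-marker RNA in this was not tested.

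Next to *Ptgs2*, on the opposite strand, lies the antisense RNA *Ptgs2os*, named here after its values were seen. Its CPM was 0.487, 0.856, 0.527 and 0.916 with DMSO and 3.49, 2.54, 3.44 and 3.94 with CHIR99021. The groups did not overlap, and it rose by a log2 fold change of 2.27 (SE 0.27, adjusted p = 1.60e-05, edgeR). The exons of *Ptgs2* share no base with another gene, so the counts of the neighbours are separate even where the strand of a read is not used. These counts rest on 9 to 15 reads per DMSO sample and on 38 to 60 per treated sample.

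Of the terminal synthases, the PGE2 enzyme rose and the prostacyclin and PGD2 enzymes fell. *Ptges*, on chromosome 2 (30889471 to 30929863, minus strand), encodes microsomal prostaglandin E synthase, the inducible enzyme that often works together with the inducible cyclooxygenase. Its CPM was 23.4, 30.1, 32.8 and 38.4 with DMSO and 57.4, 62.9, 57.7 and 67.1 with CHIR99021. Every treated sample was above every control, and the level rose 1.97-fold (log2 fold change 0.98, SE 0.13, adjusted p = 0.000123, edgeR). The nearest tested neighbour, *Prrx2*, a homeobox gene 8.22 kb away, rose by a log2 fold change of 2.29, and was chosen after its values were seen.

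*Ptgis*, on chromosome 2 (167191805 to 167240604, minus strand), encodes prostacyclin synthase. Its CPM was 21.4, 16.2, 26.7 and 22.1 with DMSO and 11.7, 11.9, 11.1 and 11.5 with CHIR99021. The treated samples lay close together, with an SD of 0.332 CPM, and all were below the controls. *Ptgis* fell by 0.90 on the log2 scale (SE 0.13, adjusted p = 9.02e-05, edgeR).

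*Ptgds*, on chromosome 2 (25466709 to 25470046, minus strand), encodes the lipocalin-type prostaglandin D synthase. Its CPM was 6.44, 5.37, 4.45 and 3.66 with DMSO and 3.43, 2.61, 3.45 and 3.75 with CHIR99021. The groups overlapped through DMSO replicate 4, and in pair 4 the treated sample was not lower. The fall of 0.59 on the log2 scale (SE 0.20, adjusted p = 0.0274, edgeR) did not hold when any of 4 single samples was left out: the adjusted p was 0.0975 and 0.0671 without DMSO replicates 1 and 2, and 0.0759 and 0.0512 without CHIR99021 replicates 2 and 3. In limma on log2(count + 1) it was 0.299.

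**Figure D2:**
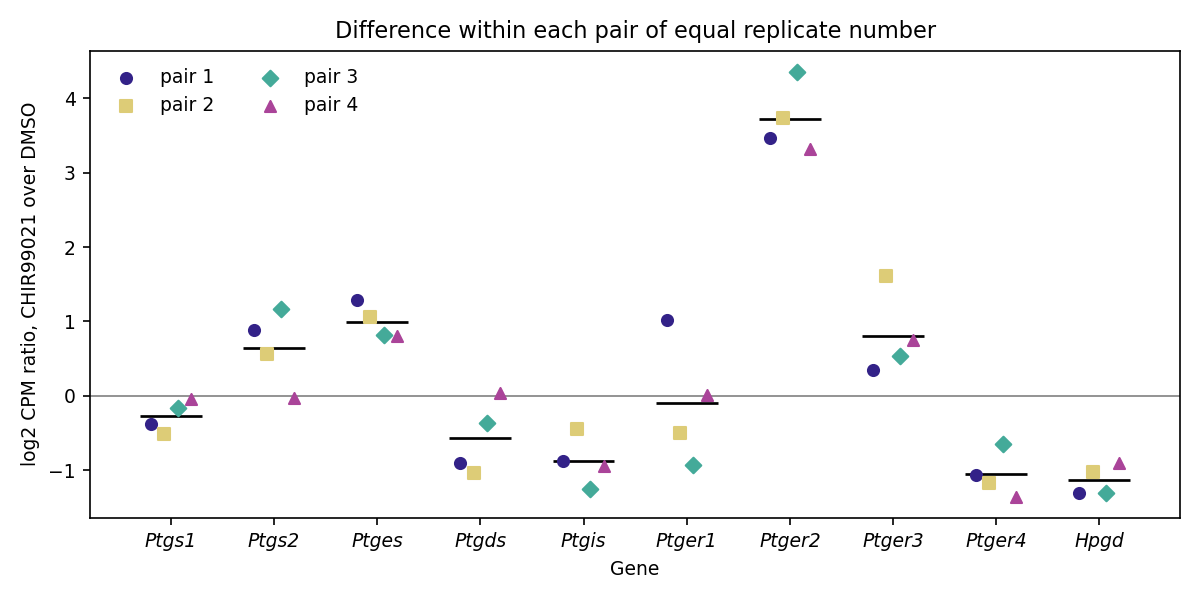
Log2 ratio of CPM, CHIR99021 over DMSO, within each of the 4 pairs of equal replicate number for the 10 genes, with a black line at the mean of the pairs. *Ptger2* lies between 3.32 and 4.35 in all pairs, while *Ptgs2* (-0.03) and *Ptgds* (0.03) are near 0 in pair 4.

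Among the PGE2 receptors *Ptger2* and *Ptger3* rose and *Ptger4* fell. *Ptger2*, on chromosome 14 (44988195 to 45003820, plus strand), encodes EP2. Its CPM was 1.08, 1.03, 0.586 and 1.51 with DMSO and 12.0, 13.7, 12.0 and 15.1 with CHIR99021. The groups were far apart, with 10 to 23 counts per control sample and 167 to 229 per treated sample. *Ptger2* rose by a log2 fold change of 3.65 (SE 0.21, adjusted p = 3.47e-08, edgeR). On the log2(FPKM + 1) scale, which compresses low levels, the change was 1.76. *Ptgdr*, the receptor gene for PGD2, lies 128.8 kb from *Ptger2* on the other strand. It was too low to be tested and is named after its values were seen. It had 1 count over the 4 DMSO samples and 24 over the 4 CHIR99021 samples, a ratio of 27.3 with a 95% counting interval of 4.45 to 1122, which covers counting error only.

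*Ptger4*, on chromosome 15 (5206661 to 5244187, minus strand), encodes EP4, the other receptor that raises cAMP. Its CPM was 10.5, 10.7, 6.97 and 9.10 with DMSO and 5.06, 4.75, 4.45 and 3.55 with CHIR99021. All treated samples were below all controls, and *Ptger4* fell by 1.07 on the log2 scale (SE 0.17, adjusted p = 0.000193, edgeR). In the GENCODE annotation 16.5% of its exon bases are also covered on the opposite strand, by *Ttc33* and *Gm15937*. *Ttc33* fell as well, by 0.74 on the log2 scale, and reads in the shared bases cannot be told apart unless the counting used strand, which is not stated.

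*Ptger3*, on chromosome 3 (157566892 to 157645888, plus strand), encodes EP3. Its CPM was 4.44, 4.23, 5.51 and 5.04 with DMSO and 5.62, 12.9, 7.97 and 8.48 with CHIR99021. The groups did not overlap, but CHIR99021 replicate 1 lay only just above the highest control while replicate 2 was far above it. *Ptger3* rose by a log2 fold change of 0.86 (SE 0.22, adjusted p = 0.00631, edgeR). Without DMSO replicates 2 and 4 the value was 0.80 with an adjusted p of 0.0601, and from pairs 1 and 3 alone it was 0.45 with an adjusted p of 0.239.

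*Ptger1*, on chromosome 8 (83666678 to 83672753, plus strand), encodes EP1 and was near the limit of detection. It had 4, 10, 7 and 6 counts with DMSO and 7, 6, 3 and 6 with CHIR99021. The ratio of the summed counts, scaled by library size, was 0.927 with a 95% counting interval of 0.503 to 1.69, so a difference was not detectable at this depth.

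Summed over the EP receptors, the level was 2.72 ± 0.232 FPKM with DMSO and 5.57 ± 0.725 with CHIR99021. *Ptger4* made up 53.5% ± 6.20 of that sum with DMSO, *Ptger3* 32.9% ± 7.10, *Ptger2* 10.8% ± 3.24 and *Ptger1* 2.82% ± 1.02. With CHIR99021 *Ptger2* made up 61.4% ± 4.90, *Ptger3* 25.8% ± 5.83, *Ptger4* 11.7% ± 2.70 and *Ptger1* 1.14% ± 0.345. Within each sample the log2 ratio of *Ptger4* to *Ptger2* was between 1.74 and 2.72 with DMSO and between -2.94 and -2.10 with CHIR99021. The leading receptor for PGE2 by RNA level was thus *Ptger4* in every control and *Ptger2* in every treated kidney. In DMSO replicate 3 that lead was narrow, with *Ptger4* at 46.6% and *Ptger3* at 43.0% of the sum. The effect on this lead of the bases that *Ptger4* shares with genes on the opposite strand was not tested.

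Over all 9 prostanoid receptors, which add those for prostacyclin (*Ptgir*), PGF2α (*Ptgfr*), thromboxane (*Tbxa2r*) and PGD2 (*Ptgdr*, *Ptgdr2*), the sum was 9.43 ± 0.417 FPKM with DMSO and 6.69 ± 0.892 with CHIR99021. *Ptgir* held 40.7% ± 3.98 of this sum with DMSO and 4.54% to 6.34% with CHIR99021. *Ptger2* held 3.16% ± 1.09 with DMSO and 51.2% ± 4.41 with CHIR99021. *Tbxa2r* held 20.1% ± 4.82 with DMSO and 5.44% ± 2.33 with CHIR99021.

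**Figure D3:**
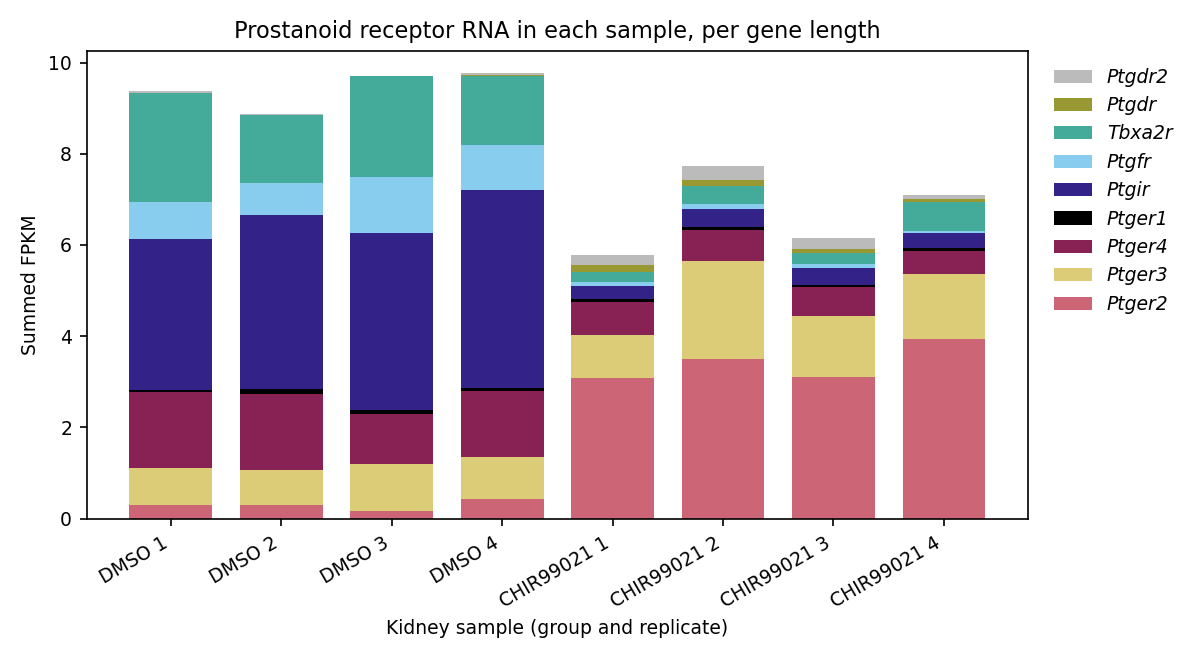
Summed FPKM of the 9 prostanoid receptor genes in each of the 8 kidney samples, stacked by gene from *Ptger2* at the base. The sum is 8.86 to 9.77 FPKM with DMSO, where *Ptgir* is the widest band, and 5.77 to 7.74 with CHIR99021, where *Ptger2* is.

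*Hpgd*, on chromosome 8 (56294585 to 56321043, plus strand), encodes the enzyme that starts the breakdown of PGE2. Its CPM was 10.7, 12.6, 9.08 and 7.72 with DMSO and 4.31, 6.16, 3.66 and 4.14 with CHIR99021. All treated samples were below all controls, and *Hpgd* fell by 1.13 on the log2 scale (SE 0.19, adjusted p = 0.000314, edgeR).

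The balance of these genes within a sample does not depend on library scaling, and 6 log2 ratios of FPKM were compared by 2-sided exact permutation tests. Each of the 6 separated the groups fully, with p = 0.0286 before and after adjustment over the 6, the smallest p that 4 against 4 samples allow in this exact test. For *Ptges* to *Hpgd*, *Ptger4* to *Ptger2*, *Ptger3* to *Ptger4* and *Ptgis* to *Ptges* this outcome was fixed in advance. Both genes of each ratio had CPM that did not overlap between the groups, and they moved in opposite directions. Their p-values therefore add nothing to the results of the single genes. The ratio of *Ptges* to *Hpgd*, the maker of PGE2 over its breakdown enzyme, was 0.42 ± 0.55 with DMSO and 2.55 ± 0.31 with CHIR99021. That of summed *Ptgs1* and *Ptgs2* to *Hpgd* was 1.13 ± 0.53 and 2.58 ± 0.36.

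The ratio of the inducible to the constitutive cyclooxygenase, *Ptgs2* to *Ptgs1*, was 0.40 ± 0.44 with DMSO and 1.32 ± 0.37 with CHIR99021. Here the groups nearly met, at 0.87 in DMSO replicate 4 and 0.88 in CHIR99021 replicate 4. *Ptgis* to *Ptges*, prostacyclin against PGE2 synthase, was 0.08 ± 0.37 with DMSO and -1.79 ± 0.10 with CHIR99021. *Ptger3* to *Ptger4*, the receptor that lowers cAMP against one that raises it, was -0.72 ± 0.46 and 1.15 ± 0.57.

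By FPKM the order of the 10 genes in the controls began with *Ptgis* (8.80 ± 1.80), *Ptges* (8.30 ± 1.68), *Ptgs2* (7.89 ± 2.79), *Hpgd* (6.22 ± 1.27) and *Ptgs1* (5.76 ± 0.775), and the ranges of each neighbouring pair among these 5 overlapped. Below them followed *Ptgds* (3.16 ± 0.744), *Ptger4* (1.47 ± 0.262), *Ptger3* (0.883 ± 0.113), *Ptger2* (0.298 ± 0.106) and *Ptger1* (0.0761 ± 0.0276), each with a range clear of the gene before it. In the treated kidneys *Ptges* (14.9 ± 1.18) and *Ptgs2* (10.8 ± 0.474) led with no overlap. *Ptgs1* (4.42 ± 1.10) and *Ptgis* (4.29 ± 0.110) came next and overlapped. They were followed by *Ptger2* (3.41 ± 0.398), *Hpgd* (2.58 ± 0.606), *Ptgds* (1.91 ± 0.292) and *Ptger3* (1.46 ± 0.499), of which each overlapped its neighbour. *Ptger4* (0.637 ± 0.0896) and *Ptger1* (0.0632 ± 0.0173) were last.

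The rest of the prostanoid pathway was read from a list of 24 further genes, of which 23 were found by symbol and 21 could be tested. Of these 6 rose, 6 fell and 9 did not pass, with a median log2 fold change of -0.07. The share that passed was 57.1%, against 48.7% of all tested genes. At the start of the pathway *Pla2g4a*, the cytosolic phospholipase A2 that releases arachidonic acid, was at 77.4 ± 3.81 CPM with DMSO and rose to 115 ± 9.39, a log2 change of 0.57 (SE 0.06, adjusted p = 9.85e-06, edgeR). The secreted phospholipase gene *Pla2g5* rose from 0.266 ± 0.0527 to 1.20 ± 0.394 CPM (2.15 on the log2 scale), on 4 or 5 counts per control sample. *Akr1b3*, an aldose reductase that can also make PGF2α, rose from 78.4 ± 7.98 to 125 ± 11.1 CPM (0.68).

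The haematopoietic PGD2 synthase gene *Hpgds* was at 11.7 ± 3.66 CPM with DMSO and fell to 3.61 ± 1.64, a log2 change of -1.69 (SE 0.36, adjusted p = 0.00402, edgeR). *Tbxas1*, thromboxane synthase, fell from 4.73 ± 1.76 to 1.18 ± 0.574 CPM (SE 0.42 on the log2 scale, adjusted p = 0.00259 from edgeR), and the carbonyl reductase gene *Cbr2* from 3.89 ± 1.12 to 0.719 ± 0.307 CPM (-2.42). The genes of prostacyclin synthase, thromboxane synthase and haematopoietic PGD2 synthase thus fell, and that of inducible PGE2 synthase rose. *Ptgds* fell too, but its call was lost in several of the alternative fits. *Akr1b3*, whose product can make PGF2α, rose as well. The constitutive PGE2 synthase genes *Ptges2* and *Ptges3* did not pass, with log2 fold changes of 0.18 and -0.03, and are named here after their values were seen.

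The 3 tested receptors outside the EP group all fell. *Ptgir* was at 10.6, 12.2, 12.3 and 13.8 CPM with DMSO and at 0.936, 1.41, 1.36 and 1.12 with CHIR99021, a 10.1-fold fall (log2 fold change -3.34, SE 0.17, adjusted p = 9.77e-09, edgeR). *Ptgfr* was at 4.62 to 7.85 CPM with DMSO and at 0.329 to 0.736 with CHIR99021 (-3.37). *Tbxa2r* was at 2.74 to 4.38 and 0.437 to 1.25 CPM (-2.21). The prostacyclin pair of synthase and receptor, *Ptgis* and *Ptgir*, and the thromboxane pair, *Tbxas1* and *Tbxa2r*, were each lower in every treated sample than in every control.

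The second PGD2 receptor, *Ptgdr2*, also named after its values were seen, was too low to be tested, with 5 counts over the DMSO samples and 34 over the CHIR99021 samples. That is a ratio of 7.73 with a 95% counting interval of 3.01 to 25.3, which covers counting error only. Of the genes for transport and removal, the efflux carrier *Abcc4* (log2 fold change 0.55) and the prostaglandin reductase *Ptgr1* (0.54) rose. So did *Ptgfrn* (0.63), whose product is a negative regulator of the PGF2α receptor. The uptake carrier *Slco2a1*, named after its values were seen, had a log2 fold change of -0.05 with an approximate 95% interval of -0.41 to 0.30.

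**Figure D4:**
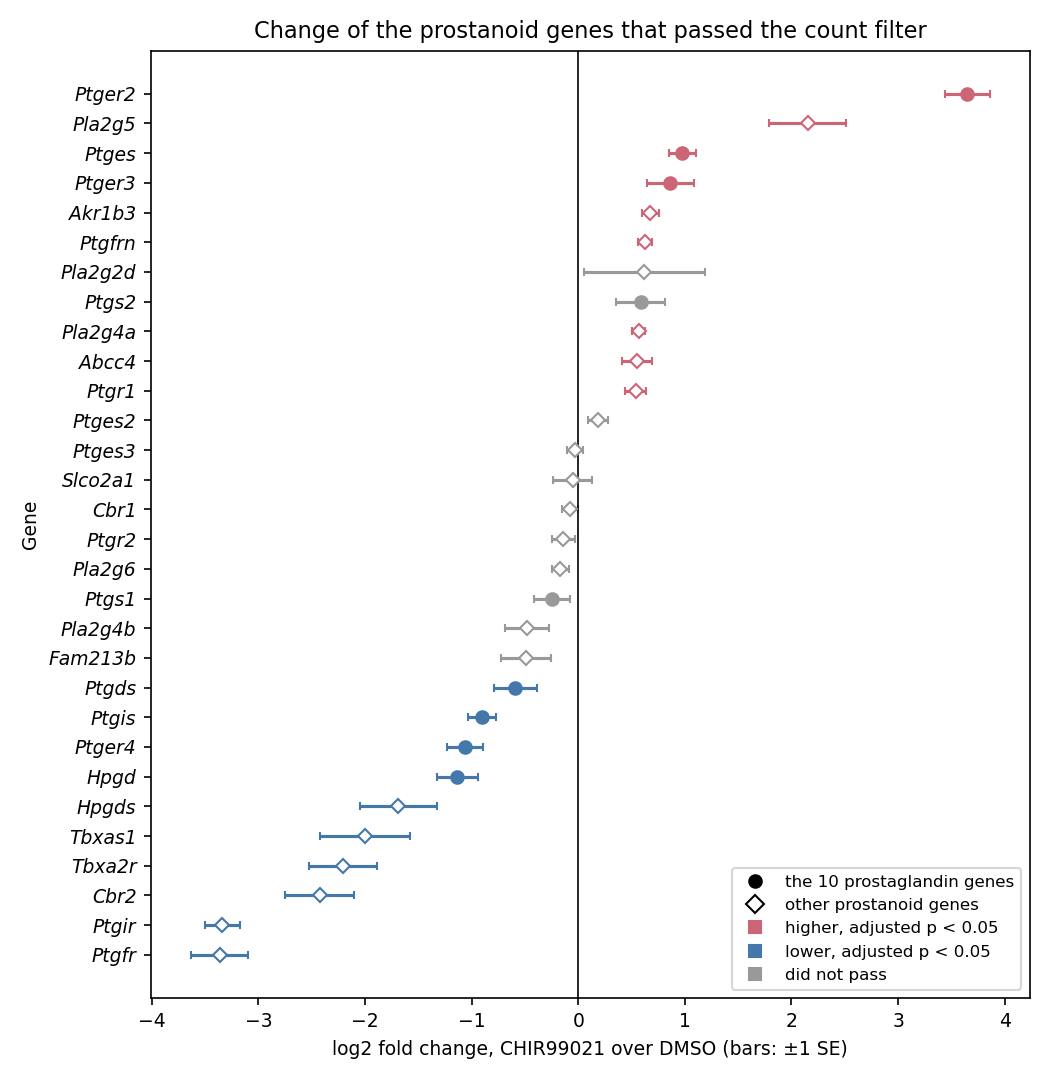
Log2 fold change, CHIR99021 over DMSO, of the 9 tested prostaglandin genes (filled circles) and the 21 tested genes of the wider prostanoid list (open diamonds), sorted by size, with bars of 1 SE. *Ptger2* is at the top with 3.65, and the receptors *Ptgir* (-3.34) and *Ptgfr* (-3.37) are at the bottom.

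Leukotrienes and lipoxygenase products form the other branch of arachidonic acid metabolism. Of 14 listed genes 9 were tested, 2 rose and 2 fell, with a median log2 fold change of -0.01. The share that passed was 44.4%, against 48.7% of all tested genes. *Lta4h*, which makes leukotriene B4, rose by 0.24 on the log2 scale and the cysteinyl leukotriene receptor *Cysltr1* by 0.74. The lipoxygenase gene *Alox15* fell by 1.42 on the same scale and the receptor *Cysltr2* by 1.02, the latter from 0.813 ± 0.144 to 0.397 ± 0.129 CPM. Without DMSO replicates 2 and 4 only the 2 rises passed, and without DMSO replicate 4 alone 2 genes rose and 4 fell.

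Genes known to respond to cAMP, the second messenger of EP2 and EP4, were read from a further list. Of 15 tested 2 rose and 6 fell, with a median log2 fold change of -0.30. The share that passed was 53.3%, against 48.7% of all tested genes. By direction 13.3% were higher and 40% lower, against 23.7% and 25.0% of all tested genes. With the replicate number as a block in edgeR, 2 rose and 9 fell, where 4096 of all 16723 tested genes rose and 4376 fell. The same block in limma on log2(count + 1) gave 3 higher and 7 lower. DESeq2 again gave 2 higher and 6 lower, and pairs 1 and 3 alone gave 2 and 5. *Ppargc1a*, a coactivator of mitochondrial genes, was at 23.7 ± 3.25 CPM with DMSO and fell to 7.78 ± 1.06, a log2 change of -1.60 (SE 0.13, adjusted p = 4.83e-07, edgeR). The phosphodiesterase genes *Pde4b* (-1.05) and *Pde3a* (-0.57) fell and *Pde4d* (0.90) rose. The products of these 3 genes break down cAMP.

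Markers of several cell types differed between the groups as well, and in whole kidneys fewer cells of a type and less RNA per cell cannot be told apart. Macrophage markers were lower for 10 of 10 tested genes, at 85.5 to 356 summed CPM with DMSO and 8.94 to 52.4 with CHIR99021, led by *C1qa*, *C1qb* and *C1qc*, and none of the markers was at 0 in all treated samples. DMSO replicate 4 was the lowest control for these markers, and also for *Hpgds* (6.54 CPM against at least 11.8), *Tbxas1* (2.22 against at least 4.86), *Ptgds* (3.66 against at least 4.45) and *Hpgd* (7.72 against at least 9.08). It was not the lowest control for *Ptger4* (9.10 CPM) and was the highest for *Ptgir* (13.8 CPM). Among the treated samples CHIR99021 replicate 4 was the lowest for the macrophage markers, and also for *Hpgds* (1.77 CPM) and *Tbxas1* (0.329). For *Ptgds* it was the highest treated sample (3.75 CPM), and its *Hpgd* (4.14 CPM) lay above that of CHIR99021 replicate 3 (3.66). The part of macrophage RNA in these falls was not tested.

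Endothelial markers were lower for 7 of 7 genes, at 398 to 557 summed CPM with DMSO and 151 to 209 with CHIR99021. Mesothelial markers were lower for 4 of 4 tested genes, at 103 to 161 and 42.2 to 61.8 summed CPM, and ureteric bud and collecting duct markers for 7 of 10, at 436 to 515 and 257 to 307. Renal stroma markers stood at 903 to 1108 summed CPM with DMSO and 981 to 1205 with CHIR99021, with 1 gene higher and 3 lower of 9. Smooth muscle markers stood at 105 to 210 and 238 to 345, with 2 higher and 1 lower of 5 tested, *Acta2* being the highest of them. Platelet markers, 19.8 to 38.4 and 11.4 to 33.7 summed CPM, overlapped between the groups, and *Pf4*, the highest of them, had a log2 fold change of -0.35 (adjusted p = 0.599, edgeR). How far these cell types contributed to the changes of *Ptgis*, *Ptgir*, *Ptger2* or the other genes was not tested.

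**Figure D5:**
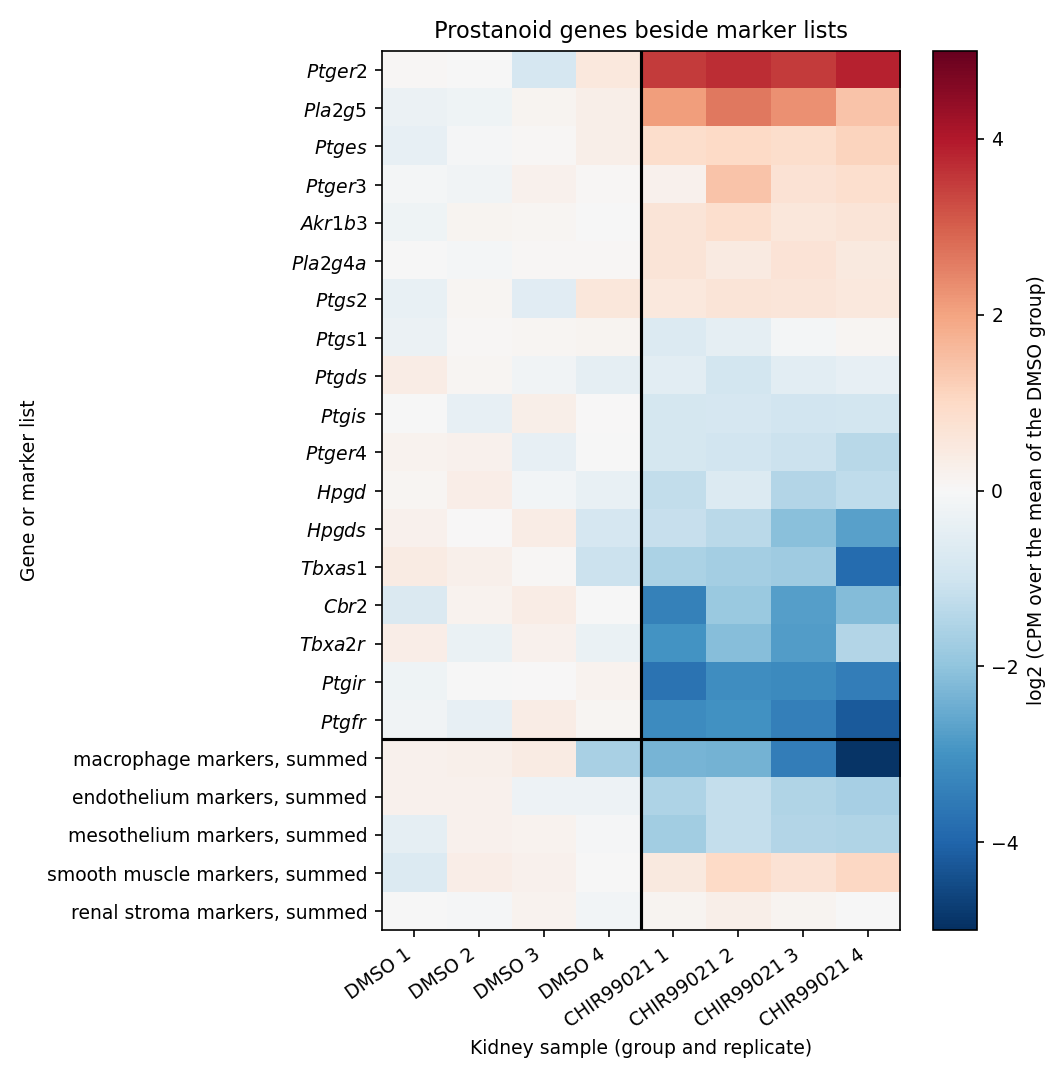
Log2 of CPM over the mean of the DMSO group, as colour, for 18 prostanoid genes and for 5 summed marker lists in the 8 kidney samples. The macrophage markers are low in DMSO replicate 4 (85.5 summed CPM) and in all treated samples, whereas *Ptger2* is high in the treated samples alone.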

How the data were processed

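RNA was sequenced from 8 cultured kidneys. Reads were mapped by the authors with HISAT2 2.0.5 on build GRCm38 and assigned to genes with featureCounts. The deposited count values are whole, unscaled numbers per gene, and the deposited FPKM of the authors divide them by gene length and depth alone. The deposited columns of the authors' own comparison (mean signal, fold ratio, log2 ratio, p-value and adjusted p-value) were not used. The labels name Trizol and NEBNext Ultra, while the paper names EASYspin Plus and Hieff NGS MaxUp II. The strand setting of featureCounts was not given in the sources used.

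R 4.3.3 was used, with DESeq2 1.42.0, edgeR 4.0.16 and limma 3.58.1. filterByExpr (minimum count 10, minimum total 15) kept 16723 genes. TMM factors were 1.04 to 1.06 with DMSO and 0.948 to 0.963 with CHIR99021. The main fit was edgeR's quasi-likelihood test (robust) with group as the only term. The paper pairs the left and right kidneys of an embryo, but the labels do not say that equal replicate numbers mark such a pair. After removal of group means, equal numbers correlated at 0.111 to 0.346 and others at -0.180 to 0.0766. Whether this comes from shared embryos was not tested. The main fit leaves any pairing out, and the fits with the replicate number as a block take equal numbers as pairs. The labels say nothing of separate animals. The procedure was tested on simulated data in which few genes changed, equally often up and down. That setting differs from this comparison, where 48.7% of tested genes passed, so the test does not give the error rates here. Lists are described by counts and medians with no set test. Named genes are all 10 members, each called gene of the wider prostanoid list, up to 4 of the leukotriene and cAMP lists with the smallest p, 3 Wnt targets, and up to 3 leading markers per list. The genes and lists were chosen with earlier results of these data known. Intervals on summed counts are exact at 95%. Those on log2 fold changes use the SE with the normal distribution, so with so few samples they are narrower than a true 95% interval. Exon overlap was read from GENCODE for GRCm38, whose spans of the 10 genes equal those of the file. One check on *Ptger1* is not reported here.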

Additional observations from a re-analysis of the deposited data

Results flagged for a closer look

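Within groups of 4 samples, the highest or lowest sample of each named gene was compared with the rest by Dixon's ratio of gap to range, and 2 of 66 groups passed the 95% critical value, where chance passes about 1 in 20 groups. *Tbxas1*, the thromboxane synthase gene, was at 0.329 CPM in CHIR99021 replicate 4 and at 1.36 to 1.56 CPM in the other treated samples. The same sample had the lowest summed macrophage markers, 8.94 CPM. *Ptgdr* was at 0.0654 CPM in DMSO replicate 4, from 1 count, and at 0 in the other controls, a gap of a single read.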

How the results depend on the processing

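No log2 fold change of the 9 tested genes or of the 12 called genes of the wider prostanoid list, and none of the 6 ratios, changed direction under the alternatives run. The median of all tested genes moved from -0.003 to 0.04 in limma on log2(count + 1), where 4261 genes were higher and 3856 lower. With the replicate number as a block in edgeR, *Ptgs1* passed (log2 fold change -0.27, adjusted p = 0.0340), but not with the block in limma on log2(count + 1) (-0.20, adjusted p = 0.154). In edgeR the block changed the call of no other of the 10 genes or named prostanoid genes. *Ptgs2* passed in DESeq2 (0.58), without DMSO replicates 2 and 4 (1.03) and from pairs 1 and 3 alone (1.02). Leaving out 1 sample at a time gave *Ptgs2* log2 fold changes of 0.44 to 0.82 (adjusted p 0.000841 to 0.146, passing without DMSO replicate 4) and *Ptgds* -0.72 to -0.45 (0.0107 to 0.0975). *Ptgds* did not pass in limma on log2(count + 1) (-0.27 in the fit with the block and in that without) or from pairs 1 and 3 (-0.66). *Ptger3* did not pass without DMSO replicates 2 and 4 (0.80) or from pairs 1 and 3 (0.45). For these results the cause was not tested. Pairs 1 and 3 alone gave 5198 called genes instead of 8138, with fewer samples, and 2 leukotriene genes instead of 4 passed there and without DMSO replicates 2 and 4, against 6 without DMSO replicate 4 alone. The calls of *Abcc4* (limma on log2(count + 1) with the block, and on log2(FPKM + 0.1)) and of *Ptgr1* (pairs 1 and 3) were lost as well. The number of called members stayed between 6 and 8. The exact test of the 6 ratios cannot go below 0.0571 with 1 sample left out, or below 0.125 over 4 pairs. Low counts limit *Ptger1*, *Ptgdr*, *Ptgdr2* and *Pla2g5*.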
